A study of Homo sapiens with 12 samples.

Results

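The 9 genes described here encode the proteins that take up retinol, make and bind retinoic acid, break it down and respond to it: STRA6, ALDH1A2, DHRS3, CRABP1, CRABP2, CYP26A1, RARA, RARB and RARG. They were taken by symbol, and all 9 were found among the 56593 gene symbols of an RNA-seq table of human cells. Expression was measured in the human embryonic stem cell line H1, which is established, and in 3 populations derived from it on the way to blood. The cells were undifferentiated H1, APLNR+ mesoderm cells of day 2, CD31+CD34+ hemogenic endothelial progenitors of day 5 and CD43+ hematopoietic progenitors of day 8, with 3 libraries of each and 12 in total. Cultures received activin A and BMP4 for the first 2 days and VEGF and bFGF afterwards, in a custom mTeSR1 medium, and no retinoid is named among the added factors. All populations thus come from a single cell line and carry no genetic change. Nothing states that the 3 libraries of a population came from separate cultures, so the p-values below measure the spread between these libraries. Cells were collected by 1 or 2 surface proteins, and in such bulk samples fewer cells of a type and less RNA per cell cannot be told apart.

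Retinol enters cells through the membrane receptor STRA6 and is oxidized to retinal and then to retinoic acid, the last step being carried out in the early embryo mainly by ALDH1A2. DHRS3 works against this flow by reducing retinal back to retinol, while CYP26 enzymes oxidize retinoic acid to products that are cleared, and the small cytoplasmic proteins CRABP1 and CRABP2 carry it. Retinoic acid acts through the nuclear receptors RARA, RARB and RARG, which bind DNA with a retinoid X receptor (RXR) partner and switch genes on or off, and the pathway is known for its part in patterning mesoderm and in the emergence of blood stem cells from hemogenic endothelium.

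Levels are given as FPKM, a fragment count made relative to transcript length and library size. Changes are on the log2(FPKM + 1) scale, on which low genes appear to change less than they do, and come with their SE and the adjusted p of limma, a linear model fitted across 14840 genes that reached 1 FPKM in at least 3 libraries. A gene is called raised or lowered, or said to have risen or fallen, where it changed at least 2-fold on this scale with an adjusted p under 0.05. This 2-fold limit is a log2 change of at least 1 of FPKM + 1, so a ratio of FPKM can exceed 2 without a call. Of the 9 genes 8 passed the filter, and RARB, under 1 FPKM in every library, did not. The FPKM of a library summed to between 568036 and 1576040, and between 12313 and 13084 entries per library reached 1 FPKM. Absolute depth is unknown, and the spacing of low values put relative depth between 0.551 and 1.27 of that of CD43+ replicate 3, with replicate 1 the shallowest in each population. An exact 0 can be a failed estimate in this table, since the translation factor gene EEF1A1 was listed at 0 in 6 libraries, but none of the 9 genes was at 0 in any library. Markers of each label were expressed, though not every marker and not in that population alone. The sum of POU5F1, NANOG and SOX2 was between 1061 and 1122 FPKM in H1. APLNR averaged 383 FPKM in APLNR+ cells, PECAM1 (CD31) 55.2 and CD34 47.7 FPKM in CD31+CD34+ cells, and SPN (CD43) 75.5 FPKM in CD43+ cells. PTPRC (CD45), another blood progenitor marker, averaged 0.197 FPKM in CD43+ cells. APLNR also averaged 403 FPKM in CD31+CD34+ cells, PECAM1 95.9 FPKM in CD43+ cells and POU5F1 354 FPKM in APLNR+ cells.

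The 9 genes did not move as a block. The breakdown enzyme CYP26A1 showed the largest swing, from about 1 FPKM in H1 to 130 FPKM in APLNR+ cells and to 0.15 FPKM in CD43+ cells. CRABP1 was replaced by CRABP2 as the more abundant binding protein at the first step, and both had their lowest means in CD43+ cells. RARG was the most abundant receptor in H1 and RARA in CD43+ cells, and STRA6 and RARA were highest in CD31+CD34+ cells.

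**Figure D1:**
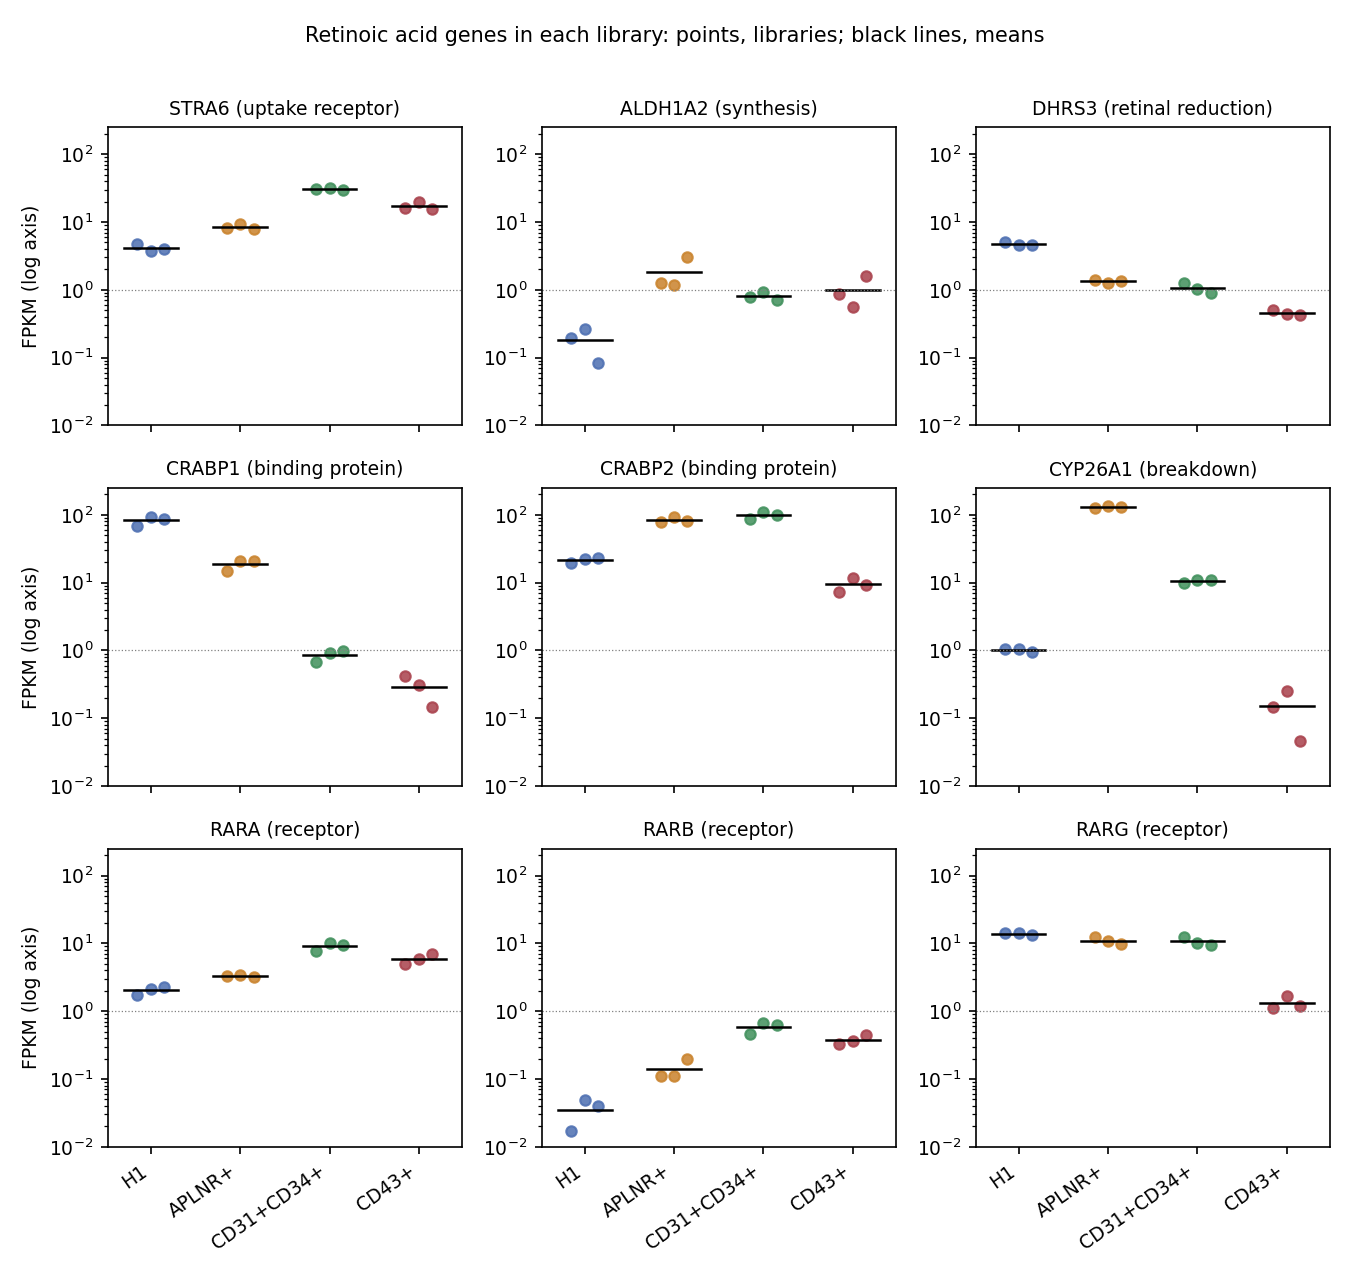
FPKM on a log axis of the 9 retinoic acid genes in the 12 libraries, by population. Each point is a library, black lines are means of 3 libraries, and the dotted line is 1 FPKM. CYP26A1 lies between 125 and 134 FPKM in APLNR+ cells and below 0.3 FPKM in CD43+ cells, while RARB stays below 1 FPKM throughout.

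Uptake was examined first. STRA6 had 4.71, 3.72 and 3.94 FPKM in the H1 libraries, 8.25, 9.42 and 7.86 FPKM in APLNR+, 30.2, 32.2 and 29.8 FPKM in CD31+CD34+ and 16.2, 19.5 and 15.4 FPKM in CD43+ cells. No populations overlapped, and the order of levels was CD31+CD34+, CD43+, APLNR+ and H1. At the step from APLNR+ to CD31+CD34+ cells STRA6 rose from 8.51 ± 0.809 to 30.7 ± 1.25 FPKM (SD, n = 3), by 1.74 ± 0.11 on the log2 scale (limma adjusted p 4.81e-08). The difference from H1 to APLNR+ cells was 0.89 (adjusted p 2.62e-05) and that from CD31+CD34+ to CD43+ cells -0.82 (6.08e-05), both under the 2-fold limit. CD43+ cells stayed above H1 by 1.81 (1.85e-08). CCDC33 lies over STRA6 on the opposite strand and had means of 0.555, 1.03, 2.4 and 1.32 FPKM along the series. No source states that strand was used in counting, so reads of these genes cannot be told apart where they overlap. The part of CCDC33 in the STRA6 values was not tested.

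ALDH1A2, the enzyme that makes retinoic acid, was low throughout. Its levels were 0.195, 0.264 and 0.084 FPKM in H1, 1.28, 1.16 and 3.1 FPKM in APLNR+, 0.791, 0.935 and 0.713 FPKM in CD31+CD34+ and 0.861, 0.553 and 1.6 FPKM in CD43+ cells. All H1 libraries lay below all others, and APLNR+ replicate 3 stood above its other replicates. From H1 to APLNR+ cells ALDH1A2 rose from 0.181 ± 0.091 to 1.84 ± 1.09 FPKM (SD, n = 3), with a log2 change of 1.21 ± 0.23 (limma adjusted p 0.000749). That call rested on APLNR+ replicate 3, without which the change was 0.91 (adjusted p 0.00144), under the 2-fold limit. Within replicate 1 the change was 0.93 and within replicates 2 and 3 it was 1.35. ALDH1A2 passed the filter through the APLNR+ libraries, since only 1 other library reached 1 FPKM, and in the fit without the filter the adjusted p was 0.00433. The later differences were not called, at -0.59 (0.0357) to CD31+CD34+ and 0.11 (0.703) to CD43+ cells. Libraries of CD43+ cells overlapped with those of APLNR+ and of CD31+CD34+ cells. LIPC and AQP9 overlap the annotated span of ALDH1A2 on the opposite strand, so its values carry the same limit on strand. The highest population means were 0.0306 FPKM for LIPC (CD43+ cells) and 0.00238 FPKM for AQP9 (APLNR+ cells). Their part in the ALDH1A2 values was not tested.

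DHRS3, which turns retinal back into retinol, took the opposite course at the first step. It had 5.13, 4.6 and 4.59 FPKM in H1, 1.42, 1.26 and 1.33 FPKM in APLNR+, 1.25, 1.03 and 0.911 FPKM in CD31+CD34+ and 0.507, 0.435 and 0.421 FPKM in CD43+ cells. APLNR+ replicate 2 lay just above CD31+CD34+ replicate 1, no consecutive populations overlapped, and the levels went down along the series. DHRS3 fell from 4.78 ± 0.306 to 1.34 ± 0.0806 FPKM from H1 to APLNR+ cells, by 1.31 ± 0.09 on the log2 scale (limma adjusted p 1.2e-07). The next differences were -0.18 (0.0825) and -0.50 (0.000474), neither of them called. CD43+ cells had 10.5-fold less than H1, at 0.454 ± 0.0466 FPKM, a log2 change of -1.99 (1.04e-09).

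The binding proteins changed places. CRABP1 had 67.8, 93.5 and 88 FPKM in H1, 14.8, 21 and 20.6 FPKM in APLNR+, 0.672, 0.927 and 0.989 FPKM in CD31+CD34+ and 0.419, 0.312 and 0.147 FPKM in CD43+ cells. Replicate 1 was the lowest of its population in H1, APLNR+ and CD31+CD34+ cells, and no populations overlapped. CRABP1 fell by 2.09 ± 0.16 on the log2 scale from H1 to APLNR+ cells (limma adjusted p 3.19e-07) and by 3.40 ± 0.16 from APLNR+ to CD31+CD34+ cells (3.47e-09). The last step gave -0.53 (0.0137) and was not called. Between the ends of the series the level dropped 284-fold, from 83.1 ± 13.5 to 0.293 ± 0.137 FPKM, which was the 15th largest fall of the 14840 genes on the log2 scale. All CD43+ libraries were under 1 FPKM, so the size of this ratio is uncertain.

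CRABP2, which hands retinoic acid to the receptors, had 19.7, 22.2 and 22.9 FPKM in H1, 78.1, 92.7 and 81.6 FPKM in APLNR+, 87, 111 and 98.8 FPKM in CD31+CD34+ and 7.29, 11.7 and 9.38 FPKM in CD43+ cells. APLNR+ and CD31+CD34+ libraries overlapped and stood above all others. At the first step CRABP2 rose from 21.6 ± 1.71 to 84.1 ± 7.6 FPKM (SD, n = 3), by 1.91 ± 0.15 on the log2 scale (limma adjusted p 3.76e-07). It did not differ beyond its spread between APLNR+ and CD31+CD34+ cells (0.23, adjusted p 0.176). From CD31+CD34+ to CD43+ cells it fell by 3.27 ± 0.15 (4.43e-09), from 99 ± 12.2 to 9.45 ± 2.21 FPKM. The call from H1 to CD43+ cells (-1.13, adjusted p 1.78e-05) was lost without CD43+ replicate 1, at -0.97, and with quantile normalization.

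Both binding proteins together reached 105 ± 15.1, 103 ± 10.4, 99.9 ± 12.3 and 9.75 ± 2.16 FPKM along the series. The sum thus differed by less than its spread across the earlier 3 populations, while its makeup turned over. The share of CRABP1 in it was 79.2% ± 1.66, 18.2% ± 2.14, 0.861% ± 0.116 and 3.19% ± 2.01 in the same order (SD, n = 3). These sums and shares, and those of the receptors below, were chosen after the values had been seen and are given as descriptions. The antisense gene AL590666.4 overlaps CRABP2 and AC011270.2 overlaps CRABP1 on the opposite strand, so the limit on strand holds here too. No FPKM is listed under the symbol AL590666.4 in these data.

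CYP26A1, the cytochrome P450 that breaks down retinoic acid, had 1.07, 1.06 and 0.956 FPKM in H1, 125, 134 and 131 FPKM in APLNR+, 9.85, 10.9 and 10.8 FPKM in CD31+CD34+ and 0.148, 0.254 and 0.0463 FPKM in CD43+ cells. No populations overlapped, and the replicates lay close together except in CD43+ cells. From H1 to APLNR+ cells CYP26A1 rose 126-fold, from 1.03 ± 0.0647 to 130 ± 4.88 FPKM (SD, n = 3). The log2 change was 6.01 ± 0.09 (limma adjusted p 5.78e-13), the 6th largest rise of the 14840 genes. The level then fell 12.4-fold to 10.5 ± 0.579 FPKM in CD31+CD34+ cells (-3.51 ± 0.09, 2.84e-11) and 70.3-fold to 0.15 ± 0.104 FPKM in CD43+ cells (-3.33 ± 0.09, 1.04e-10). Without CD43+ replicate 2 the latter fall was 108-fold. Among falls at these steps it was the 43rd and 28th largest. CD43+ cells were below H1 by -0.82 (4.27e-06), under the 2-fold limit with a pseudocount of 1 FPKM and past it, at -2.27, with 0.1 FPKM. In replicate 1 alone the first change was 5.92 and in replicates 2 and 3 it was 6.06. The gene AL358613.3 is annotated over CYP26A1 on the same strand in GENCODE release 29, and 23.3% of the 50-base stretches of CYP26A1 transcripts also occur in it, so the FPKM of CYP26A1 is uncertain as that of a single gene. No FPKM is listed under the symbol AL358613.3 in these data.

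The related enzymes CYP26B1 and CYP26C1 did not pass the filter. CYP26B1 averaged 0.0528, 0.204, 0.0287 and 0.0537 FPKM along the series and CYP26C1 0.0423, 0.248, 0.548 and 0.262 FPKM. CYP26A1 was thus the only CYP26 gene above 1 FPKM, and in CD43+ cells no CYP26 gene had a mean above 0.3 FPKM.

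CYP26A1 and RARB are textbook targets of the retinoic acid receptors, through a paired element in their promoters. The element is a direct repeat of the half-site AGGTCA. In place of it each copy could also read AGTTCA, while GGGTCA was allowed too and GGTTCA as well. The repeat was searched on both strands with a spacer of 5 or 2 bases in RefSeq promoter windows (GRCh38.p14, 250 bases before to 50 after each start). All 9 genes had windows. A repeat with a 5-base spacer was in 31 of 35116 windows (0.0883%), and 2 of the 9 genes held it, against 29 of all 27305 genes (0.106%). With a 2-base spacer it was in 14 windows (0.0399%) and in 0 of the 9 genes. The 2 genes with the 5-base form were the textbook targets, known before the search, so these counts are no test of the 9 genes. The stretches that hold the 5-base form are shown with the repeat in capitals, both read on the plus strand.
CYP26A1: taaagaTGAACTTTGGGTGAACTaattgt
RARB: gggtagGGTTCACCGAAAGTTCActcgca
The CYP26A1 stretch is chr10:93073797-93073825. Its repeat reads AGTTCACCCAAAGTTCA on the strand opposite to the gene and lies 90 to 74 bases before a start of CYP26A1, within an annotated exon of another of its transcripts. The RARB stretch is chr3:25428204-25428232, and its repeat reads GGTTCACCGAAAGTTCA on the strand of the gene, 53 to 37 bases before a start. These coordinates are of GRCh38.p14, while the table was made on hg19. A match is a description of letters and says nothing of binding in these cells. The genes that share the element did not share a profile, since CYP26A1 peaked at 130 FPKM in APLNR+ cells and RARB was highest, at 0.582 FPKM, in CD31+CD34+ cells.

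RARG followed one course, and RARA and RARB shared an order of levels. RARG had 14.2, 14.1 and 13.2 FPKM in H1, 12.2, 10.8 and 9.62 FPKM in APLNR+, 12.4, 10.1 and 9.56 FPKM in CD31+CD34+ and 1.12, 1.69 and 1.2 FPKM in CD43+ cells. APLNR+ and CD31+CD34+ libraries overlapped, and all CD43+ libraries lay far below the rest. From CD31+CD34+ to CD43+ cells RARG fell 8.02-fold, from 10.7 ± 1.52 to 1.34 ± 0.308 FPKM, a log2 change of -2.33 ± 0.13 (limma adjusted p 2.22e-08). The earlier differences were -0.32 (0.0446) and -0.02 (0.871), neither called, and the sign of the latter turned with quantile normalization (0.03).

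RARA had 1.75, 2.11 and 2.3 FPKM in H1, 3.34, 3.43 and 3.17 FPKM in APLNR+, 7.65, 10.1 and 9.57 FPKM in CD31+CD34+ and 4.97, 5.93 and 7.02 FPKM in CD43+ cells. No populations overlapped, and the order of levels was CD31+CD34+, CD43+, APLNR+ and H1, as for STRA6. At the step from APLNR+ to CD31+CD34+ cells RARA rose from 3.32 ± 0.133 to 9.12 ± 1.31 FPKM (SD, n = 3), by 1.22 ± 0.13 on the log2 scale (limma adjusted p 4.11e-06). Within replicate 1 the change was 0.99 and within replicates 2 and 3 it was 1.34. RARA was 0.50 (0.00585) higher in APLNR+ cells than in H1 and 0.54 (0.00416) lower in CD43+ than in CD31+CD34+ cells, differences under the 2-fold limit. From H1 to CD43+ cells RARA rose by 1.18 (4.09e-06). The antisense gene RARA-AS1 overlaps RARA and had means of 0.157, 0.401, 0.785 and 1.04 FPKM along the series, and its part in the RARA values was not tested.

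RARB had 0.017, 0.0483 and 0.0398 FPKM in H1, 0.109, 0.112 and 0.194 FPKM in APLNR+, 0.459, 0.672 and 0.616 FPKM in CD31+CD34+ and 0.333, 0.357 and 0.439 FPKM in CD43+ cells. The populations did not overlap and kept the order of RARA. The exact two-sided permutation p was 0.1 for each pair of populations, the smallest that 3 against 3 libraries allow. In the fit without the filter the largest consecutive difference was 0.47, from APLNR+ to CD31+CD34+ cells (limma adjusted p 7.18e-05), under the 2-fold limit. On the FPKM scale the means were 0.138 ± 0.0484 and 0.582 ± 0.11. TOP2B overlaps RARB by 28 bases on the opposite strand, so the limit on strand holds for RARB too. The means of TOP2B were 44, 37.8, 4.1 and 8.23 FPKM along the series, and its part in the RARB values was not tested.

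Because FPKM is scaled to length, the receptors can be set beside each other. Along the series, RARG made up 86.9% ± 1.97, 75.8% ± 2, 52.4% ± 7.01 and 17.5% ± 3.68 of the summed RAR FPKM (SD, n = 3). The share of RARA was 12.9% ± 1.89, 23.2% ± 1.67, 44.7% ± 6.47 and 77.6% ± 3.39. RARB made up at most 4.91% ± 0.374, in CD43+ cells. The order of RARG and RARA in CD31+CD34+ cells differed between libraries. RARG held 60.5% in replicate 1, the shallowest library of the series, and 48.4% in each of replicates 2 and 3, where RARA held 48.4% and 48.5%. The sum of the 3 receptors was 15.9 ± 0.35, 14.3 ± 1.35, 20.4 ± 0.615 and 7.69 ± 1.14 FPKM along the series.

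**Figure D2:**
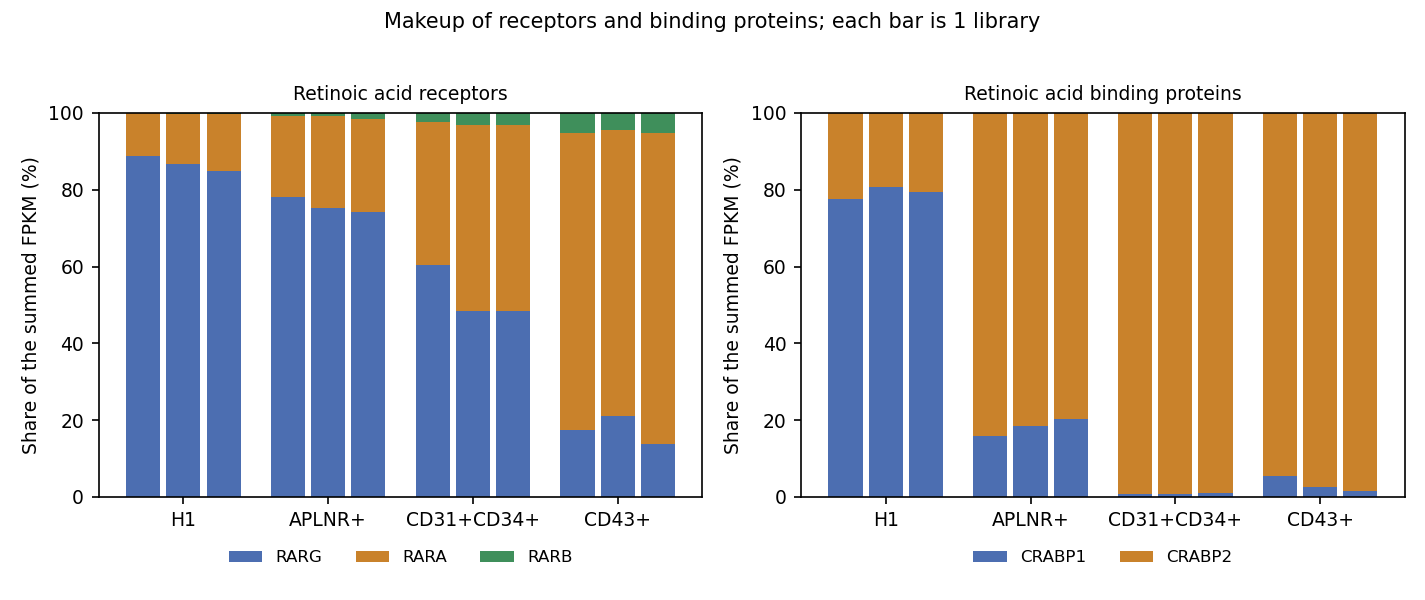
Share in percent of the summed FPKM held by each retinoic acid receptor (left) and each binding protein (right), 1 bar per library in 4 groups of 3. RARG gives way to RARA along the series, from 86.9% to 17.5% of the receptor sum, and CRABP1 falls from 79.2% to 18.2% of the binding protein sum between H1 and APLNR+ cells.

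Step by step, from H1 to APLNR+ cells 3 of the 8 genes rose (CYP26A1, CRABP2 and ALDH1A2) and 2 fell (CRABP1 and DHRS3), where 15.9% of all genes tested were called, 8.3% raised and 7.62% lowered. ALDH1A2 would not have passed the filter without the APLNR+ libraries, so a difference there was built into its being tested. It stayed called in the fit without the filter (limma adjusted p 0.00433) but not without APLNR+ replicate 3 (0.91). At the step to CD31+CD34+ cells 2 were raised (STRA6 and RARA) and 2 lowered (CYP26A1 and CRABP1), where 29.6% of all genes were called, 12.5% raised and 17.1% lowered. At the last step, to CD43+ cells, limma called 0 raised and 3 lowered (CYP26A1, CRABP2 and RARG), where 14.4% were called, 5.58% raised and 8.79% lowered. At an unadjusted limma p under 0.05 with no minimum change, 0 of the 8 were higher and 7 lower there. The share of all genes at that limit is not given. Between H1 and CD43+ cells 2 were raised (STRA6 and RARA) and 4 lowered (CRABP1, RARG, DHRS3 and CRABP2), where 37.1% were called, 14.6% raised and 22.5% lowered. From H1 to CD31+CD34+ cells 6 of the 8 were called, where 40.1% of all genes were, and from APLNR+ to CD43+ cells 4 were lowered, where 33.6% were called and 19.4% lowered. Libraries of the populations compared did not overlap for 8, 6 and 7 of the 8 genes at the consecutive steps, where this held for 66%, 75.7% and 58% of all genes tested. It held for 8 genes between H1 and CD43+ cells, 8 between H1 and CD31+CD34+ cells and 7 between APLNR+ and CD43+ cells, beside 76.3%, 79% and 75.4% of all genes. The median log2 change of the 8 genes was 0.70, -0.10 and -0.68 at the consecutive steps and -0.98 from H1 to CD43+ cells, and that of all genes tested -0.12, -0.01, -0.00 and -0.10. Quantile normalization moved the last of these to 0.02 and changed the calls of 2 of the 8 genes over the 6 comparisons, losing that of CRABP2 from H1 to CD43+ cells and gaining that of STRA6 from APLNR+ to CD43+ cells (1.01, adjusted p 2.39e-06). Consecutive comparisons share the libraries of the population between them.

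**Figure D3:**
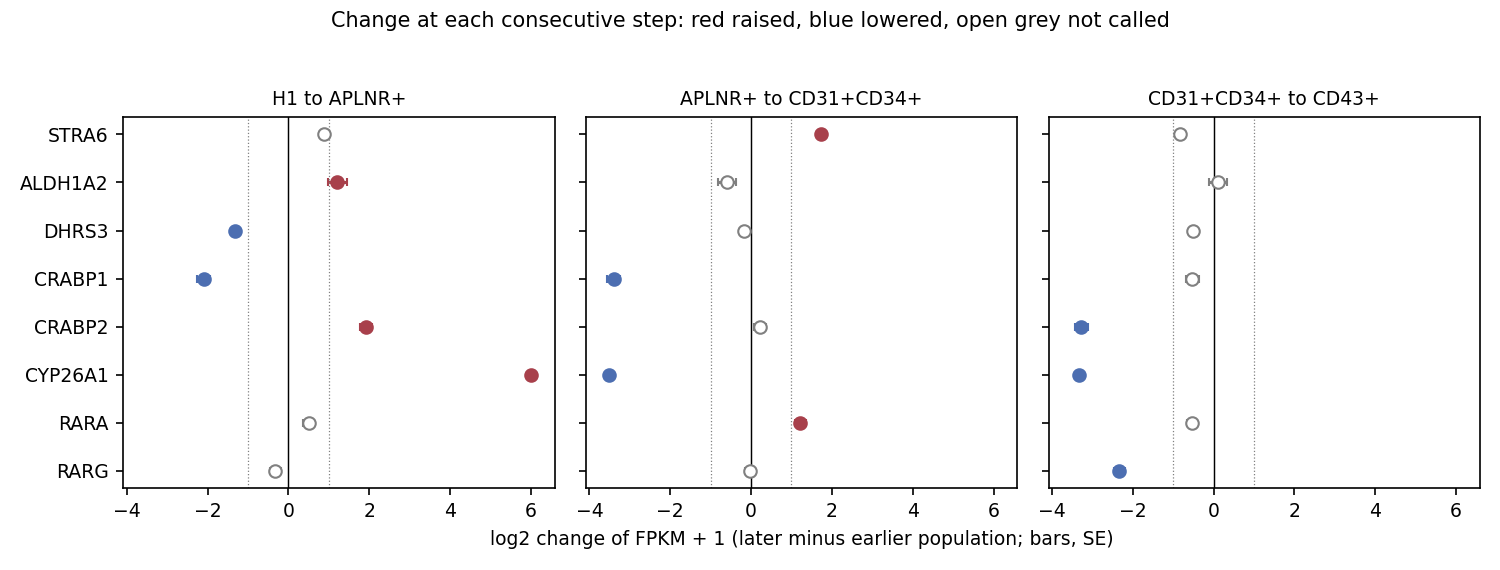
Change on the log2(FPKM + 1) scale of the 8 genes tested at the 3 consecutive steps (later minus earlier population), with SE bars. Red is raised, blue lowered, open grey not called, and dotted lines mark a 2-fold change. CYP26A1 moves by 6.01 to the right at the first step and by 3.51 and 3.33 to the left at the next ones.

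The rest of the pathway was read from 5 lists holding 66 symbols, written from general knowledge but with earlier results of these data known. Of these symbols 65 were in the table and 43 passed the filter. From H1 to APLNR+ cells 6 were raised and 3 lowered (20.9% called), at the next step 9 and 5 (32.6%), at the last 4 and 4 (18.6%), and between H1 and CD43+ cells 12 and 9 (48.8%). The shares of all genes called in these comparisons were those given above. Of the 4 raised at the last step 3, ALDH1A1, ZBTB16 and TTR, passed the filter through the CD43+ libraries alone, so a difference there was built into their being tested. They stayed called in the fit without the filter, with adjusted p of 6.67e-08, 1.67e-07 and 6.7e-08. Leaving out any CD43+ library removed them from the genes tested, of which 39 were then left and 1 was raised. CDX2, raised at the second step, would not have passed without the CD31+CD34+ libraries, nor RBP7, lowered at the first, without those of H1. Both stayed called in the fit without the filter, with limma adjusted p of 0.00155 and 0.00045. From H1 to CD43+ cells 4 of the 12 raised and 2 of the 9 lowered likewise passed only through their highest population.

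Of 10 other enzymes of retinoid production that were tested, limma called 0 at the first step, although 1 was higher and 6 lower at an unadjusted p under 0.05. Of all genes 15.9% were called there. At each later step 2 of the 10 (20%) were called, beside 29.6% and 14.4% of all genes. At the step to CD31+CD34+ cells 2 fell, the retinol dehydrogenases RDH10 (6.68 ± 0.467 to 2.41 ± 0.537 FPKM, log2 change -1.18, adjusted p 3.46e-05) and RDH14 (11.2 ± 0.911 to 3.99 ± 0.833 FPKM, -1.30, 4.72e-06). RDH10 carries out the first oxidation of retinol in the embryo. At the step to CD43+ cells ALDH1A1 rose from 0.229 to 6.71 FPKM (2.65 ± 0.10, 9.8e-10) and ALDH1A3 fell from 1.45 to 0.18 FPKM (-1.04, 0.00041). Both oxidize retinal, as ALDH1A2 does. Among the 3 ALDH1A genes the highest mean was that of ALDH1A3 in H1 (1.97 FPKM) and CD31+CD34+ cells (1.45 FPKM), and that of ALDH1A1 in CD43+ cells, while ALDH1A2 had 1.01 FPKM there. In APLNR+ cells the order differed between libraries, with ALDH1A3 at 3.15, 2.38 and 1.47 FPKM and ALDH1A2 at 1.28, 1.16 and 3.1 FPKM.

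Carriers and storage enzymes moved in both directions. FABP5, a fatty acid binding protein that can also carry retinoic acid, rose from 86.6 to 271 FPKM in APLNR+ cells (log2 change 1.63, adjusted p 1.08e-07) and fell to 13.1 FPKM in CD31+CD34+ cells (-4.27, 2.76e-11). It has processed pseudogenes, so its value is uncertain. LRAT, which stores retinol as esters, fell at the first step from 3.71 to 1.32 FPKM (-1.03, 7.37e-07), as did the retinol binding protein gene RBP7. At the last step TTR, the plasma carrier of retinol binding protein, rose from 0.205 to 4.37 FPKM (2.15, 1.95e-09). From H1 to CD43+ cells all 6 carriers tested were called, 2 raised and 4 lowered, where 37.1% of all genes were called, 14.6% raised and 22.5% lowered. Of the 6, RBP7 would not have passed the filter without the H1 libraries, nor TTR without those of CD43+ cells.

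Of 17 receptor partners and coregulators tested, 3 rose at the first step, the coregulators NRIP1 (2.98 to 7.19 FPKM, log2 change 1.04, adjusted p 1.25e-05), TBL1X (3.49 to 10.2 FPKM, 1.37, 0.000354) and CREBBP. The share called was 17.6%, 17.6% and 11.8% at the consecutive steps, beside 15.9%, 29.6% and 14.4% of all genes. TBL1XR1 fell at the second step from 63.6 to 17.2 FPKM (-1.83, 7.04e-08), where PPARD and PML rose. At the last step ZBTB16 rose from 0.558 to 18.6 FPKM (3.64, 2.29e-09). PML and ZBTB16 are both known as fusion partners of RARA in acute promyelocytic leukemia. The RXR partners of the receptors summed to 8.57 ± 0.4, 10.6 ± 1, 15.5 ± 1.36 and 10.6 ± 1.55 FPKM along the series, and RXRA gave the most in each population.

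Of 10 tested genes known to respond to retinoic acid, 6 rose and 1 fell at the step to CD31+CD34+ cells, the consecutive step at which the most genes were called among all tested. The share called was 30%, 70% and 20% at the consecutive steps, beside 15.9%, 29.6% and 14.4% of all genes. The risers were HOXB2, HOXB3, CDX2, MEIS1 (3.14 to 17.1 FPKM, log2 change 2.13, adjusted p 1.44e-07), MEIS2 (1.37 to 9.1 FPKM, 2.05, 4.48e-06) and TGM2 (0.699 to 5.72 FPKM, 2.00, 4.1e-08). MEIS and HOX genes encode patterning factors that also act in blood progenitors, and TGM2 encodes a transglutaminase. MEIS1 rose again to 51.5 FPKM in CD43+ cells (1.53, 5.17e-06). At the first step HOXB2 and MEIS1 rose. RARRES2, which encodes the secreted protein chemerin, fell at each step, from 111 to 34.4, 11.8 and 2.11 FPKM (-1.67, -1.47 and -2.08, adjusted p 7.22e-06, 1.21e-05 and 1.24e-06). These genes answer to other signals too, and their part in a response to retinoic acid was not tested here. Genes of the lists beyond those the naming rule returned (RDH10, RDH14, ALDH1A3, LRAT, RBP7, TTR, CREBBP, PPARD, PML, HOXB2, HOXB3, CDX2 and the RXR genes) were named after their values had been seen.

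**Figure D4:**
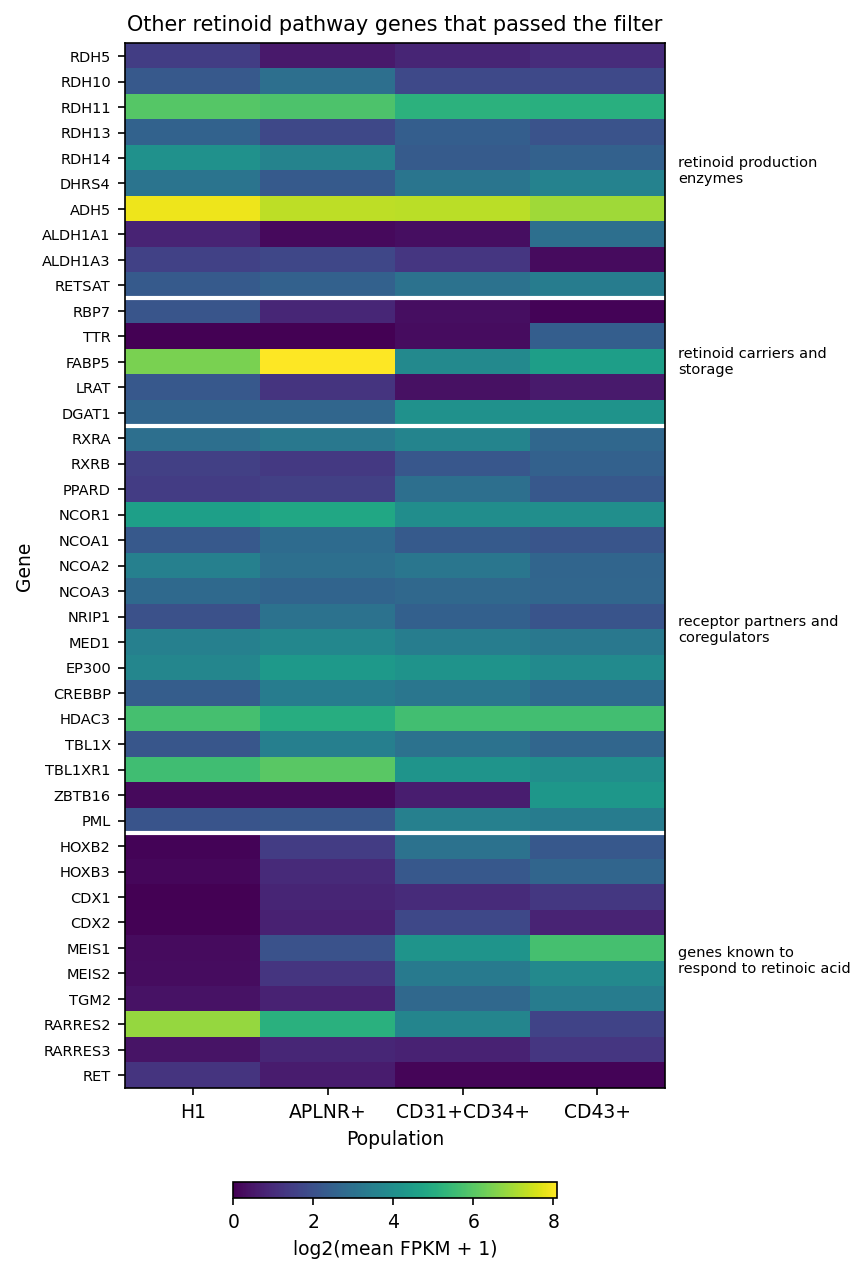
Color gives log2(mean FPKM + 1) of 41 of the 43 other pathway genes that passed the filter (rows, grouped by list) in the 4 populations (columns, means of 3 libraries). FABP5 is brightest in APLNR+ cells (271 FPKM), and ALDH1A1 and ZBTB16 brighten in CD43+ cells (6.71 and 18.6 FPKM).

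Genes with the most similar profiles were sought among up to 7354 protein-coding genes whose highest population mean was at least 10 FPKM, by Pearson r of log2(FPKM + 1) over the 12 libraries, as a description. These libraries fall into 4 populations, which sets most of each r. CYP26A1 was matched by IER3 (r = 0.997), ADAM19 (0.995) and AFAP1 (0.994). The levels of ADAM19, a metalloprotease gene, were 4.51, 96.6, 23.2 and 2.77 FPKM along the series. Close to STRA6 were RHOC (0.996) and PCDHGC3 (0.995), with RHOC at 38.6, 96, 357 and 185 FPKM. CRABP1 was closest to UGP2, GULP1 and NLN (0.996 each), and CRABP2 to PLAU (0.994), KRT8 (0.993) and SLC2A3 (0.990). KRT8, a keratin of simple epithelia, had 152, 462, 654 and 60.5 FPKM. DHRS3 was closest to GRTP1 (0.993), RBM47 and DNMT3B (0.991 each), RARA to WASF2 (0.993), FHL3 and SEC16A (0.991 each), and RARG to CIB2 (0.990), CTTN (0.989) and FSD1 (0.988). For ALDH1A2, whose replicates spread most, the closest were PTGFRN (0.879), IL6ST (0.866) and TIPARP (0.862).

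Markers of other cell types moved between the populations as well, mostly through single genes of each list. The summed FPKM of 4 cardiac genes was between 6.16 and 7.48 in H1, 95.4 and 127 in APLNR+, 44.7 and 46.9 in CD31+CD34+ and 1.99 and 2.75 in CD43+ cells. MYL7 gave most of it in APLNR+ cells, with a mean of 108 FPKM, while NKX2-5 was highest in CD31+CD34+ cells (21.7 FPKM) and TNNT2 in H1 (4.91 FPKM), and TNNI1 stayed under 1 FPKM on average. The sum of 5 smooth muscle and stroma genes was between 76.2 and 107, 423 and 566, 369 and 445, and 117 and 144 in the same order. It followed TAGLN (76.4, 466, 274 and 15.7 FPKM), whereas ACTA2 (0.922, 1.53, 13.3 and 34.8 FPKM), COL3A1 (0.14, 0.52, 24.2 and 44.2 FPKM) and PDGFRB (3.12, 11.4, 13.2 and 17.5 FPKM) had their highest means in CD43+ cells and COL1A1 in CD31+CD34+ cells (85 FPKM). For 6 endoderm genes the sum was between 8.25 and 9.43, 19.1 and 22.1, 35.1 and 45.9, and 4.12 and 5.35. In CD31+CD34+ cells SOX17 (24.2 FPKM), which hemogenic endothelium also expresses, and APOA1 (11 FPKM) gave most of it, and AFP was highest in H1 (8.56 FPKM). For 3 neural genes (PAX6, SOX1 and OTX2) it was between 11.7 and 14.5, 26 and 36.1, 4.01 and 4.29, and 0.0368 and 0.144. OTX2 gave nearly all of it, with 32.4 FPKM in APLNR+ cells beside 0.192 FPKM of PAX6 and 0.0113 FPKM of SOX1. In undifferentiated H1 OTX2 also averaged 12.9 FPKM, beside 0.063 FPKM of PAX6 and 0.0102 FPKM of SOX1. SOX1 was listed at 0 in CD31+CD34+ and both PAX6 and SOX1 in CD43+ cells. MYL7, TAGLN and OTX2 were thus highest in APLNR+ cells, where CYP26A1 was, and NKX2-5, COL1A1, SOX17 and APOA1 in CD31+CD34+ cells, where STRA6 and RARA were. The part of such cells in the values of the 9 genes was not tested.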

How the data were processed

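Per the labels, RNA was extracted with Trizol and libraries were made with a TruSeq RNA kit. The authors deposited FPKM values in a single table. The submitters' processing notes name BWA, Bowtie, RSEM and hg19 without roles or versions, and scaling between libraries is not given in the sources used here. Of 58365 entries, 345 symbols stood on more than 1 line of which the one with the highest mean was used. Genes with at least 1 FPKM in at least 3 libraries (14840) were fitted as log2(FPKM + 1) with limma 3.58.1 in R 4.3.3 (lmFit, contrasts.fit, eBayes with trend), all populations in 1 model without covariates, with Benjamini-Hochberg adjustment over all genes tested. The fit was tested on simulated data. The precision is limited by 3 libraries per population. Groups came from the sample labels. Pathway genes were named as up to 3 called genes per direction and consecutive step, by largest change, with a higher mean of at least 5 FPKM, and likeness as the 3 highest r. Members, gene lists and marker lists were chosen with earlier results of these data known. Alternatives were other pseudocounts, filters, scalings, fits and thresholds, a replicate block, and leaving out each library. Tables were read in Python 3.11.15 (pandas 2.3.3, numpy 2.4.6), exact tests run in scipy 1.17.1 and figures drawn in matplotlib 3.10.9. Promoter windows are from RefSeq and gene overlaps from GENCODE release 29. Values of a few genes are not reported here.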

Additional observations from a re-analysis of the deposited data

How the results depend on the processing

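The setting with no minimum change alters only calls and is left out of the next counts. With it 8, 5, 7 and 8 genes were called at the 3 steps and from H1 to CD43+ cells, beside 5, 4, 3 and 6. Under the other alternatives there were 996 values of the log2 changes of the 8 genes. Of these 980 kept their direction and side of the threshold, 3 lost the call, 8 gained it and 5 turned sign. None of the 5 was a called change. They were RARG from APLNR+ to CD31+CD34+ cells (0.03 with quantile normalization, 0.06 without APLNR+ replicate 1, 0.01 without CD31+CD34+ replicate 2 and 0.05 without CD31+CD34+ replicate 3) and ALDH1A2 from CD31+CD34+ to CD43+ cells (-0.09 without CD43+ replicate 3). Leaving out 1 library gave from -0.13 to 0.06 for the former and from -0.09 to 0.28 for the latter. The causes were not tested. A pseudocount of 0.1 FPKM brought STRA6 at the first step to 1.03, and at the last step DHRS3 to -1.06 and CRABP1 to -1.34.

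The number of the 9 genes called from H1 to APLNR+ cells, 5, became 3 with a mean of at least 5 FPKM, which leaves fewer genes tested, and 8 with no minimum change. That from CD31+CD34+ to CD43+ cells, 3, became 5 with a pseudocount of 0.1 and 7 with no minimum change. For the pathway lists the numbers called at the 3 steps and from H1 to CD43+ cells, 9, 14, 8 and 21, became 5, 8, 4 and 10 with a mean of at least 5 FPKM and 30, 33, 23 and 34 with no minimum change. The first became 17 with a pseudocount of 0.1, and the third 4 with replicates 2 and 3 alone. Leaving out 1 library gave 4 to 5, 4 to 4, 3 to 3 and 5 to 6 for the 9 genes and 7 to 10, 13 to 14, 4 to 8 and 18 to 21 for the lists, with 4 without CD43+ replicate 1 or replicate 3.

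Labels give each population replicates 1 to 3 without saying that a number marks a shared culture. Deviations of same-numbered libraries from their population means correlated between -0.02 and 0.43 (median 0.21) and those of different numbers between -0.40 and 0.29 (median -0.15). The 6 pairs of replicate 1 libraries lay between 0.20 and 0.43 (median 0.34), and 6 of 12 libraries correlated best with their own number. With the replicate block the counts were 5, 4, 3 and 6 for the 9 genes and 9, 14, 8 and 21 for the lists, and no call of the 8 genes changed.

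Levels under 1 FPKM are the least precise, and since absolute depth is unknown no interval can be given for them. Such levels include RARB, ALDH1A2 in H1, CYP26A1 and DHRS3 in CD43+ cells and CRABP1 in CD31+CD34+ and CD43+ cells.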
